A study of Mus musculus with 12 samples.

Results

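Retinoid handling and retinoid receptors were described through 8 genes, Crabp1, Crabp2, Rbp4, Aldh1a2, Cyp26b1, Rara, Rarg and Rxra, out of 17536 genes with values in chondrocytes of 5-day-old mice. The genes were chosen by symbol for their known roles in the pathway, and all 8 had a row. RNA was sequenced from cells of the superficial zone (SFZ) and of the deep zone (DZ) of cartilage from the ends of the femur and tibia, with 3 libraries in each of 4 groups and 12 libraries in all. R3-Cntl mice were Runx3 fl/fl without Cre. R3-cKO mice were Col2a1-Cre; Runx3 fl/fl littermates, in which the Col2a1 promoter drives the recombinase in cartilage cells, and both genotypes were on a C57BL/6J background. SFZ cells were those that left the cartilage ends in a first round of trypsin and collagenase, DZ cells came from a further digestion of what remained, and by the methods the cells were kept as a monolayer. Values are read as FPKM (fragments mapped to a gene, relative to its length and to the size of the library) scaled by the authors with TMM, a trimmed mean of the fold changes between libraries. This unit was inferred and is not written beside the values. The depth of the libraries is unknown, so the spread between libraries is the measure of error.

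Retinol, the transported form of vitamin A, travels in blood on Rbp4. Inside a cell retinol is oxidised to retinal and then to retinoic acid, the last step by enzymes of the Aldh1a family such as Aldh1a2. Crabp1 and Crabp2 are small cytosolic proteins that bind retinoic acid, and Cyp26b1 is a cytochrome P450 that breaks it down. Rara and Rarg encode nuclear receptors that retinoic acid activates, and Rxra encodes the partner with which they bind DNA. Of these receptors Rarg is the best known in growing cartilage.

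Runx3, the targeted gene, was not called between the genotypes in either zone. Its SFZ level was 10.73, 5.98 and 6.65 FPKM in R3-Cntl and 11.83, 9.07 and 3.42 in R3-cKO, and in the DZ 12.67, 12.65 and 7.66 against 15.95, 12.66 and 8.14. The groups overlapped in both zones (differences of -0.04, SE 0.43, and 0.13, SE 0.28, on the log2(FPKM + 1) scale). The values cover the whole gene, and which exons the floxed part holds is not given in the sources used here, so R3-cKO below means the libraries so labelled. Ddx3y, a Y-linked gene chosen after its values were seen, was at most 0.02 FPKM in the R3-cKO libraries numbered 2 and 3, in either zone, and at least 4.96 in the other 8 libraries. R3-Cntl SFZ library 2 had a summed level of 6 skeletal muscle markers of 98.6 FPKM, against 1.49 to 13.6 in the other 11. The 8 chondrocyte markers, Col2a1, Acan and Sox9 among them, summed to 4810 FPKM or more in every library.

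The DNA before the start sites of the receptor genes is shown first, because retinoic acid receptors act on short DNA elements. Promoters were taken from RefSeq (build GRCm38.p6), as 250 bases before and 50 after each start. They were found for 7 of the 8 genes with 13 start sites in all, and the entry for Crabp2 was missing. Each was searched on both strands for AGGTCA and AGTTCA, core motifs of nuclear receptors, and TGTGGT and TGCGGT, core motifs of Runx proteins. Among 32851 promoters of the same length AGGTCA occurs in 16.3%, AGTTCA in 14%, TGTGGT in 16.8% and TGCGGT in 6.45%. At least 1 of the 4 was found at 6 of the 13 starts (46.2%), and in 43.8% of all promoters. Matches are in capitals in the runs of bases before the start, written 5′ to 3′ along the gene.

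Crabp1, chr9:54764498-54764747, plus strand, the gene with the largest zone difference of the 7 retinoid genes tested here, is shown with no match:
Crabp1: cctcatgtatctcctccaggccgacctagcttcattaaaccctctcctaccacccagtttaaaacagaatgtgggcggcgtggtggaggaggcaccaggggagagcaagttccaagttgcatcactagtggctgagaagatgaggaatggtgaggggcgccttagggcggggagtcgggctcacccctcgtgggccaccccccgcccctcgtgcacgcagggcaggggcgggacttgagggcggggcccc

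For each receptor gene a start was picked that has a match. Some other starts of Rara and the other start of Rxra have none, and the start in use in these cells was not measured. Shown are Rara at chr11:98939461-98939710 (plus strand), Rarg at chr15:102257523-102257772 (minus strand) and the last 120 bases before a start of Rxra at chr2:27709172-27709291 (plus strand).
Rara: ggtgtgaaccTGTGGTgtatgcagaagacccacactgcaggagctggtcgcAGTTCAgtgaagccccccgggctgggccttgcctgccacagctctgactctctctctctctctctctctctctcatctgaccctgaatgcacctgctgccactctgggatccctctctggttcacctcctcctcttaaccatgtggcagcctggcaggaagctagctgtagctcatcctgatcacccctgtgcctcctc
Rarg: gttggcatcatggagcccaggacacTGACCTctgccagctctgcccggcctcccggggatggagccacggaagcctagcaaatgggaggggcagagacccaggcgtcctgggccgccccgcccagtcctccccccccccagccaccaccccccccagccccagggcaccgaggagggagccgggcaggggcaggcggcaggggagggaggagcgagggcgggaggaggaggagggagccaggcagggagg
Rxra: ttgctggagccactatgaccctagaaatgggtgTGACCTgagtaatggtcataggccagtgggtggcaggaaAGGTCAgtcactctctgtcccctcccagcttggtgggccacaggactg

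Retinoic acid receptors are best known to bind the DR5 element, a direct repeat of the core motif with 5 bases between. Read as any pair of AGGTCA or AGTTCA so spaced, each also with G as its first base, it occurred in 32 of the 32851 promoters (0.0974%), and at none of the 13 starts. It was present before Rarb, the receptor gene induced by retinoic acid, at chr14:16575496-16575556 (minus strand), and before Cyp26a1, the sister enzyme of Cyp26b1, at chr19:37697748-37697807 (plus strand), where it lies on the opposite strand. Both are shown because they are the classical targets of the receptors.
Rarb: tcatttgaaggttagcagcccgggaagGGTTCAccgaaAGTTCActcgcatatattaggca
Cyp26a1: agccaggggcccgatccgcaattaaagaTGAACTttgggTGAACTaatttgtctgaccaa

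Neither of those targets reached 1 FPKM in any library. Rarb was 0.04 to 0.28 FPKM and Cyp26a1 0.00 to 0.06. A match is a description of the letters in these windows, and bound sites were not measured here.

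Levels of the 8 genes differed widely. Mean FPKM over the 12 libraries was 87.3 for Rarg, 83.4 for Rbp4, 21.2 for Rxra, 7.0 for Rara, 6.92 for Cyp26b1, 6.23 for Crabp2, 3.75 for Crabp1 and 0.101 for Aldh1a2. Neighbours in this order were often not separated. Rarg exceeded Rbp4 in 7 of 12 libraries and Rara exceeded Cyp26b1 in 7 of 12, whereas Rxra exceeded Rara in 12 of 12 and Rbp4 exceeded Rxra in 11 of 12. The genes lie on 7 chromosomes in mm9, the build of the values, with Crabp1 (chr9:54612555-54620917) and Aldh1a2 (chr9:71063596-71144050) on the same one. The receptors are at chr11:98789132-98836256 (Rara), chr15:102065369-102087948 (Rarg) and chr2:27531960-27618477 (Rxra). Crabp2 is at chr3:87752588-87757298, Rbp4 at chr19:38191110-38199811 and Cyp26b1 at chr6:84521938-84543740.

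**Figure D1:**
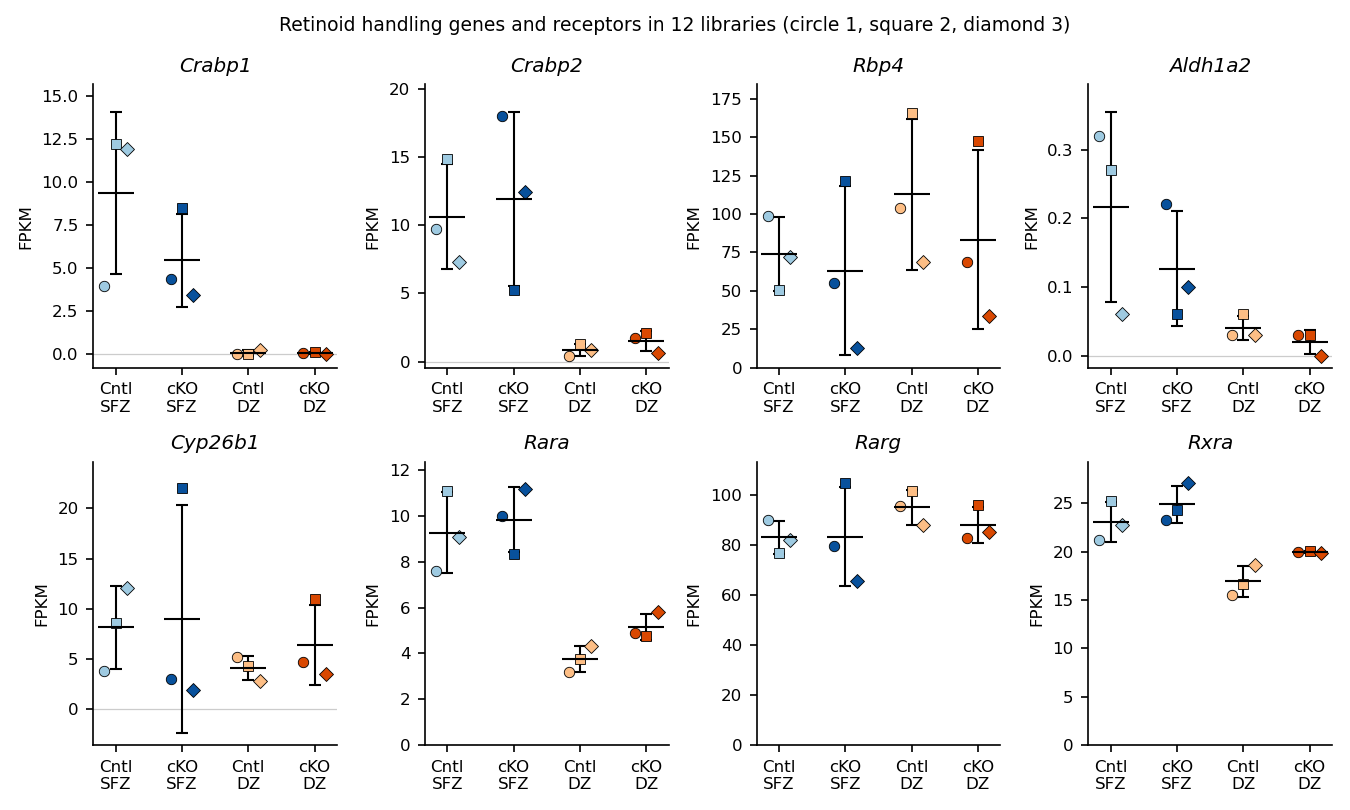
FPKM (y axis, linear) of the 8 genes in R3-Cntl and R3-cKO libraries of the SFZ and DZ. Symbols mark libraries 1 to 3 of a group and black bars the mean and SD, n = 3. Crabp1, Crabp2, Rara and Rxra lie higher in every SFZ library than in any DZ library, whereas Rbp4, Cyp26b1 and Rarg overlap.

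The zones were compared first, over both genotypes. Crabp1, Crabp2, Rara and Rxra were lower in DZ than in SFZ cells, and Rbp4, Rarg and Cyp26b1 did not pass the test. Of all 11765 genes tested, 23.2% passed, 18.9% as lower and 4.30% as higher in the DZ. The genes entered the test if they had at least 1 FPKM in at least 3 libraries, which Aldh1a2 had not and Crabp1 had only through the SFZ. With no filter on low values, 5 of the 8 genes passed, these 4 and Aldh1a2, all lower in the DZ, where 16.0% of all 17536 genes passed. For Crabp1, Crabp2, Rara and Rxra the zones did not overlap, as for 11.3% of the 11765 genes. The test was limma on log2(FPKM + 1) with genotype as a term, with Benjamini-Hochberg adjustment over all genes and a threshold of 0.05. The median gene was 0.14 lower in the DZ on that log2 scale, and 506 genes passed as higher and 2219 as lower. After quantile normalization this split was 1237 and 915, and with median-of-ratios size factors 1053 and 1088.

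Crabp1, which binds retinoic acid in the cytosol, had the largest difference of the 8. In SFZ cells it was 3.97, 12.24 and 11.94 FPKM in R3-Cntl and 4.39, 8.51 and 3.47 in R3-cKO. In DZ cells it was listed at 0 in R3-Cntl libraries 1 and 2 and R3-cKO library 3, and was 0.28, 0.06 and 0.14 in the other 3. Every SFZ library was thus above every DZ library, and Crabp1 passed the filter on low values only through its SFZ levels. The difference, DZ minus SFZ, was -2.82 on the log2(FPKM + 1) scale (SE 0.27, n = 6 and 6). With no filter, where no gene enters through 1 zone, its limma adjusted p was 0.000571. The size of the difference depends on the pseudocount, with -5.40 at 0.1 and -1.23 at 5, and it is no bound on the fold change.

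Crabp2, which carries retinoic acid towards its receptors, was 9.72, 14.85 and 7.32 FPKM in R3-Cntl and 18.00, 5.28 and 12.42 in R3-cKO SFZ cells. In DZ cells it was 0.45, 1.33 and 0.88 in R3-Cntl and 1.76, 2.09 and 0.66 in R3-cKO. Its mean was 11.3 ± 4.76 FPKM (SD) in the SFZ and 1.195 ± 0.645 in the DZ, a ratio of 9.43. The zones did not overlap, and the difference was -2.44 (SE 0.28, limma adjusted p = 0.000533, n = 6 and 6). Within the SFZ the pair did not rank the libraries alike. Crabp1 made up 19.6 to 62% of the summed Crabp1 and Crabp2 FPKM there, with the highest shares in R3-Cntl library 3 and R3-cKO library 2.

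Markers of several cell types also differed between the zones, in either direction. All 11 fibroblast, tendon and perichondrium markers were lower in the DZ by the same test, and their summed level was 3920 to 11079 FPKM in SFZ and 121 to 2159 in DZ libraries. Tnmd, a tendon marker, was listed at 0 in R3-cKO DZ libraries 1 and 3, and Dpt in R3-Cntl DZ library 1. Of the superficial zone markers 4 of the 6 tested were lower in the DZ and none was higher, Prg4 (lubricin) not among them at adjusted p = 0.0576. In the R3-Cntl libraries Prg4 passed (-2.36, limma adjusted p = 0.0485), though no gene passed there with no filter. All 8 chondrocyte markers were higher in the DZ, where they summed to 15258 to 33721 FPKM against 4810 to 14117. Of the 8 deep zone and hypertrophy markers 2 were higher in the DZ and 6 were not called, beside 4.30% higher of all genes tested. With no filter again 2 of these 8 were higher and 0 lower. Macrophage markers summed to 6.90 to 157 FPKM in the SFZ and 3.71 to 20.4 in the DZ. Of these lists 3 fibroblast, 2 superficial zone and 3 macrophage markers entered the test only through the SFZ. With no filter 10 of 11, 5 of 8 and 3 of 6 were lower in the DZ, and 7 of the 8 chondrocyte markers were higher. Endothelial markers summed to 0.53 to 5.5 FPKM in the SFZ and 0.05 to 0.37 in the DZ. Adipocyte markers summed to 0.31 to 9.35 and 0 to 0.2. None of either list passed the filter, and with no filter 2 of 5 endothelial and 0 of 4 adipocyte markers were lower. Of the skeletal muscle markers 2 were tested and of the keratinocyte markers 1, and none of them was called. The part of these cells in the zone differences of the retinoid genes was not tested, and in such bulk RNA fewer cells of a type and less RNA per cell cannot be told apart.

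Rbp4, the retinol carrier best known from liver, was among the most abundant of the 8 genes and varied more between libraries than between zones. In the SFZ it was 98.55, 50.77 and 72.12 FPKM in R3-Cntl and 55.36, 121.79 and 12.65 in R3-cKO. In the DZ it was 103.96, 165.94 and 68.86 in R3-Cntl and 68.87, 147.67 and 33.67 in R3-cKO. Library 2 was the highest and library 3 the lowest in every group but R3-Cntl SFZ. The zone difference was 0.61 (SE 0.51, limma adjusted p = 0.413). The liver markers Alb, Apoa1 and Serpina1a together gave at most 0.14 FPKM in any library.

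Aldh1a2, an enzyme that makes retinoic acid, was below 1 FPKM in all 12 libraries and did not enter the test. It ranged from 0.06 to 0.32 in the SFZ and from 0.00 to 0.06 in the DZ, so the zones met at 0.06. With no filter the difference was -0.18 (SE 0.052, limma adjusted p = 0.0406), at levels near the lower end of the scale. Cyp26b1, which removes retinoic acid, was 3.80, 8.63 and 12.06 FPKM in R3-Cntl and 3.01, 22.03 and 1.90 in R3-cKO SFZ cells. In DZ cells it was 5.19, 4.34 and 2.82 in R3-Cntl and 4.74, 10.96 and 3.55 in R3-cKO. Its zone difference was -0.34 (SE 0.49, limma adjusted p = 0.646), and it was 0.02 without R3-cKO SFZ library 2, which held the highest value. Of Aldh1a1, Aldh1a2 and Aldh1a3, which catalyse the same step, Aldh1a1 had the highest FPKM in 12 of 12 libraries.

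Of the receptors, Rara and Rxra were lower in the DZ and Rarg was not called. Rara was 7.58, 11.11 and 9.10 FPKM in R3-Cntl and 9.98, 8.35 and 11.19 in R3-cKO SFZ cells, and 3.17, 3.74 and 4.32 in R3-Cntl and 4.89, 4.75 and 5.81 in R3-cKO DZ cells. Every DZ library lay below every SFZ library, with means of 9.55 ± 1.47 (SD) and 4.45 ± 0.927 FPKM, a ratio of 2.15, and a difference of -0.96 (SE 0.11, limma adjusted p = 0.000635, n = 6 and 6). Rarg, the more abundant receptor, was 90.03, 76.80 and 82.11 FPKM in R3-Cntl and 79.39, 104.72 and 65.68 in R3-cKO SFZ cells. In the DZ it was 95.52, 101.56 and 87.81 in R3-Cntl and 82.62, 95.89 and 85.01 in R3-cKO. These ranges overlapped, and the difference was 0.15 (SE 0.11, limma adjusted p = 0.342).

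Rxra, the partner of both, was 21.17, 25.27 and 22.74 FPKM in R3-Cntl and 23.33, 24.32 and 27.06 in R3-cKO SFZ cells. In the DZ it was 15.51, 16.64 and 18.66 in R3-Cntl and 19.92, 20.03 and 19.91 in R3-cKO, below every SFZ library. The difference of -0.36 (SE 0.07, limma adjusted p = 0.00548) was small, and it depended on the scaling. It was -0.20 with adjusted p = 0.0736 after quantile normalization and -0.21 with adjusted p = 0.0634 with median-of-ratios size factors. Relative to the median gene the Rxra difference was -0.22, that of Rara -0.82, that of Crabp2 -2.30 and that of Crabp1 -2.68. The calls of Crabp1, Crabp2 and Rara held under both scalings, and those of all 4 genes when each library was left out. Crabp1 entered these fits only through its SFZ levels, so its calls in them are no added support.

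Rarg made up most of the receptor transcripts in both zones. It was 89.2% ± 2.85 (SD, n = 6) of the summed Rara, Rarb and Rarg FPKM in SFZ cells and 95.2% ± 1.17 in DZ cells, while Rara was 10.6% ± 2.77 and 4.69% ± 1.2. The sum itself was 92.9 ± 12.0 FPKM in the SFZ and 96.0 ± 6.80 in the DZ, so that it overlapped while its make-up did not. The share of Rarg was 85.2 to 92.4% in SFZ and 93.5 to 96.5% in DZ libraries. Among the partners Rxra, Rxrb and Rxrg, Rxra held 52.8 to 64.1% and Rxrb most of the rest.

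**Figure D2:**
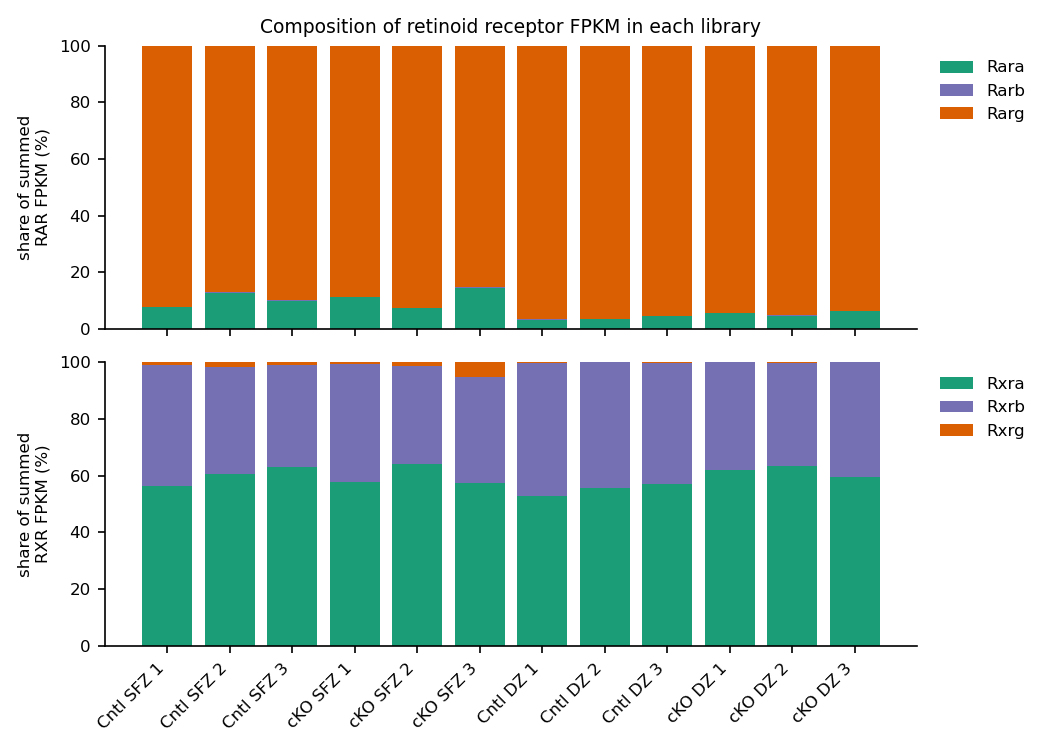
Share of each gene (y axis, %) in the summed FPKM of the retinoic acid receptors (RAR, top) and of the retinoid X receptors (RXR, bottom), 1 bar per library. Rara takes a larger part of the RAR bars in the 6 SFZ libraries (7.37 to 14.5%) than in the 6 DZ libraries (3.20 to 6.39%), and Rarb is hardly visible.

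The genes were also tested singly. With zone labels exchanged within genotype, the exact two-sided permutation p was 0.005 for Crabp1, Crabp2, Rara and Rxra, the smallest that 400 splits allow. These splits did not keep the number pairs of the R3-cKO libraries. It was 0.01 for Aldh1a2, 0.205 for Rarg, 0.315 for Rbp4 and 0.55 for Cyp26b1.

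Within the genotypes the zone differences had the same direction for those 4 genes, on fewer libraries. In R3-Cntl cells Crabp1 (-3.13, limma adjusted p = 0.0473), Crabp2 (-2.60, adjusted p = 0.0389) and Rara (-1.11, adjusted p = 0.0480) passed and Rxra (-0.42, adjusted p = 0.0992) did not. Of all 11336 genes 1.24% passed. Crabp1 and Crabp2 entered this test only through their SFZ values, and all 3 genes were close to the threshold. In these libraries the zones did not overlap for 4 of the 7 against 32.4% of all. Without R3-Cntl SFZ library 2, the muscle-rich library, the adjusted p was 0.154 for Crabp2 and 0.228 for Rara. Crabp2 and Rara lost the call in 5 of 6 fits that left out a library, the exception being R3-Cntl SFZ library 1, and Crabp1 in all 3 in which it passed the filter. All 3 calls were also lost with no filter on low values (adjusted p = 0.105) and after quantile normalization.

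In R3-cKO cells the values were -2.52 for Crabp1 (limma adjusted p = 0.0736), -2.27 for Crabp2 (adjusted p = 0.132), -0.81 for Rara (adjusted p = 0.114) and -0.30 for Rxra (adjusted p = 0.286). None of the 7 genes passed there, where 0.0176% of 11336 genes did, and the zones did not overlap for Crabp1, Crabp2, Rara and Rxra, where 21.0% of all genes tested did not. Crabp1 and Crabp2 entered this test, too, through the SFZ only. With the library number as a block, the pairing that the R3-cKO libraries bear out, Crabp1 (adjusted p = 0.0296) and Rara (adjusted p = 0.0355) passed, as did 352 genes in place of 2. Both calls were lost with the block and no filter (adjusted p = 0.184 for either gene), where 0 of 17536 genes passed and 966 higher and 2909 lower genes had an unadjusted limma p under 0.05. With 3 libraries a side the exact permutation p was 0.1 for each of these 4 genes in either genotype, the smallest that 20 splits allow.

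Other genes of the pathway gave a context. Lists of 63 further genes were used, of which 60 had values and 41 passed the filter over all libraries. Of these 41, 1 was higher and 13 were lower in the DZ, beside 4.30% and 18.9% of all genes tested, with a median difference of -0.25 beside -0.14. Of the 41, 3 entered only through the SFZ, and with no filter 2 of 60 were higher and 13 lower, with a median of -0.11 beside -0.067. None of the catabolism genes Cyp26a1, Cyp26c1 and Cyp2s1 passed the filter, which left Cyp26b1 as the enzyme of that step with at least 1 FPKM in 3 or more libraries.

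In retinol supply and storage none of 5 tested genes passed, beside 23.2% of all genes, and 1 had an unadjusted limma p under 0.05. That unadjusted p was reached by 4363 of the 11765 genes. With no filter 1 of 11 was higher in the DZ and 0 lower, with a median of -0.0023 beside -0.067. Stra6, the receptor that takes up retinol from Rbp4, was at most 0.04 FPKM, and Lrat, which esterifies retinol, at most 0.05. In retinol and retinal oxidation 4 of 16 tested genes were lower in the DZ, beside 18.9% of all genes, and none was higher. Of the 16, 2 entered only through the SFZ, and with no filter 4 of 22 were lower, with a median of -0.053 beside -0.067 over all genes. The call of Adh7 (-1.53, limma adjusted p = 0.0103), an alcohol dehydrogenase that oxidises retinol, held under both other scalings, while those of Rdh13 and Dhrs4 were lost under both. Adh1 (-1.33), of the same enzyme family, entered only through the SFZ, and its limma adjusted p with no filter was 0.0337.

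Among 11 coregulators of nuclear receptors 5 were lower in the DZ, where 18.9% of all genes were, and none was higher. Hdac3, a histone deacetylase of the corepressor complex, was lower (-0.42, SE 0.08, limma adjusted p = 0.00427) and passed under the other scalings too. The calls of Ep300, Ncor1, Ncoa2 and Nrip1 were lost under both. Rxrb was not called (-0.22, adjusted p = 0.0978).

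Genes known to respond to retinoic acid moved in both directions, 1 of 10 tested higher and 5 lower in the DZ, beside 4.30% and 18.9% of all genes. With no filter 1 of 15 was higher and 4 lower, with a median of -0.093 beside -0.067. Tgm2, a transglutaminase, was 8.35 to 14.01 FPKM in DZ and 2.48 to 6.47 in SFZ libraries (1.17, SE 0.18, limma adjusted p = 0.00200). Lower were Meis2 (-1.06, adjusted p = 0.00117) and Meis1 (-0.86, adjusted p = 0.00200), homeobox partners of Hox proteins, and Rai14 (-0.98, adjusted p = 0.00280). Nrip1 was also lower, as was Rarres2, which entered only through the SFZ, and both calls were lost under the other scalings. The calls of Rarres2, Rdh13, Dhrs4, Ncor1, Ncoa2 and Nrip1 were lost in 4 to 9 of the fits that left out a single library.

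**Figure D3:**
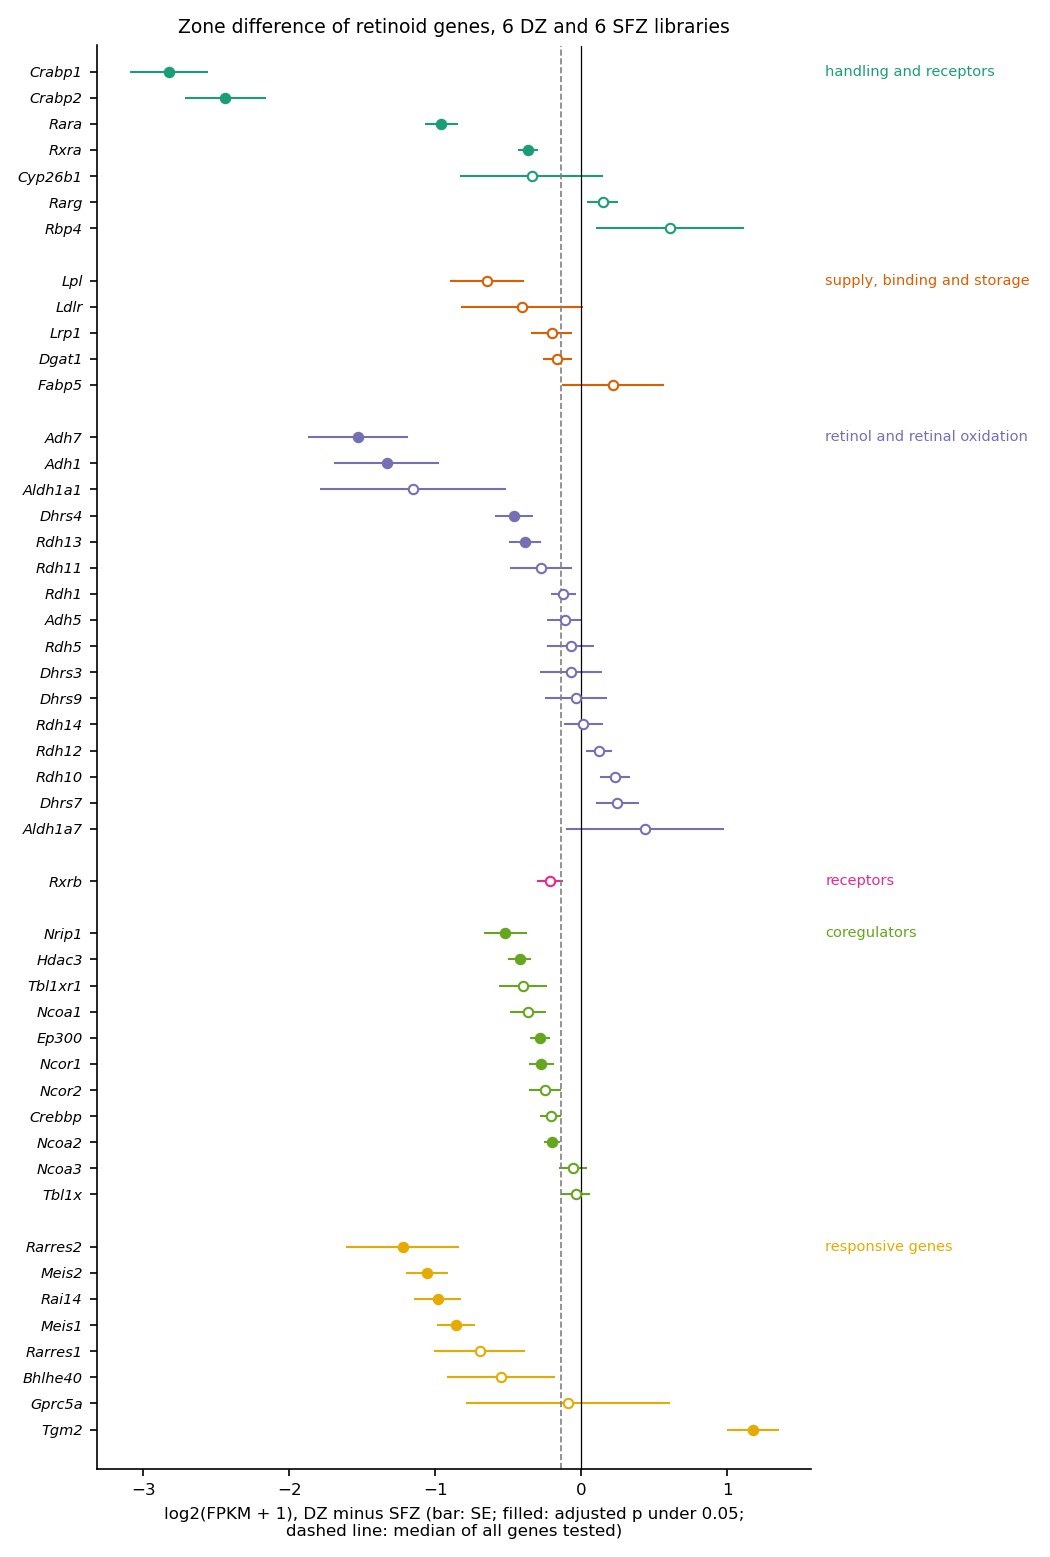
DZ minus SFZ difference on the log2(FPKM + 1) scale (x axis, bars are SE, 6 against 6 libraries) for the 7 tested genes described here and the other retinoid genes, a gene of 2 lists being drawn once. Filled points passed an adjusted p of 0.05, the dashed line is the median of all genes (-0.14), and Crabp1 and Crabp2 lie farthest to the left.

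The genotypes were then compared within each zone, the comparison for which the mice were made. In SFZ cells none of the 7 genes tested passed, as 0 of 11537 genes did (0.00%), and 34 of these had an unadjusted limma p under 0.05, none of the 7 among them. Those 34 are far fewer than the share of 0.05 such a p gives where nothing differs and libraries are independent. The lack of calls is thus no sign that the genotypes are alike. Crabp1 was 9.38 ± 4.69 FPKM (SD) in R3-Cntl and 5.46 ± 2.68 in R3-cKO, and differed by -0.63 (SE 0.47, exact two-sided permutation p = 0.3). Rara was 9.26 ± 1.77 and 9.84 ± 1.43 FPKM, Rarg 83.0 ± 6.66 and 83.3 ± 19.8. The genotypes overlapped for all 8 genes in the SFZ, where 2.40% of genes tested did not. Of the 8 deep zone and hypertrophy markers 6 had a negative difference there and 2 a positive one. The 2 at an unadjusted limma p under 0.05, Alpl (-0.92, SE 0.35) and Pth1r (-0.47, SE 0.18), both described below, did not overlap. Nor did Prg4 (-1.45, SE 0.52), the 1 of 6 superficial zone markers tested at that p. The part of these cells was not tested.

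In DZ cells 0 of 11091 genes passed (0.00%), with 404 at an unadjusted limma p under 0.05. With the library number as a block, by which these libraries pair, it was again 0, with 1278 higher and 552 lower genes in R3-cKO at that unadjusted p. Of the 6 retinoid genes tested here, Rara was 1 of the 404 and the others were not. It was at 3.74 ± 0.58 FPKM in R3-Cntl and 5.15 ± 0.58 in R3-cKO (difference of 0.38, SE 0.14, limma adjusted p = 0.999). All 3 R3-cKO libraries were above all 3 R3-Cntl libraries. The same held for Rxra, at 16.9 ± 1.60 and 19.95 ± 0.067 FPKM (difference of 0.23, SE 0.11, limma adjusted p = 0.999). Groups without overlap made up 8.03% of all genes tested, and the exact two-sided permutation p was 0.1 for both genes, the smallest possible. Ddx3y was low in 2 of the 3 R3-cKO DZ libraries and in none of the R3-Cntl ones, and in the third, at 12.67 FPKM, Rara was 4.89 and Rxra 19.92. The part of what Ddx3y marks in these differences was not tested. No cell type marker passed the adjusted threshold either, and the levels of some of these lists are given beside these values. Of the 8 deep zone and hypertrophy markers 7 had a negative difference, 2 of them with an unadjusted limma p under 0.05, and their sum was 1392 to 2555 FPKM in R3-Cntl and 1049 to 2296 in R3-cKO. These 2 were Alpl, an alkaline phosphatase of mineralising cartilage, with a mean of 36.3 ± 14.3 FPKM (SD) in R3-Cntl against 10.6 ± 1.88, and Pth1r, the receptor for parathyroid hormone-related protein, with 57.25 to 77.76 FPKM against 35.20 to 56.19. Neither overlapped between the genotypes. Of the 8 chondrocyte markers 7 had a negative difference, none with an unadjusted limma p under 0.05, and their sum was 21147 to 33721 FPKM in R3-Cntl and 15258 to 27374 in R3-cKO. The sum of fibroblast markers was 121 to 2159 against 226 to 1507, with 6 of the 8 tested having a positive difference, and that of macrophage markers 6.32 to 20.4 against 3.71 to 6.31. Both macrophage markers tested had a negative difference, and 1 of them, Lyz2 (lysozyme), had an unadjusted limma p under 0.05 and no overlap (difference of -1.15, SE 0.44). The part of these cells was not tested.

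The rest of the 8 genes overlapped between genotypes in the DZ. Rbp4 was 113 ± 49.2 FPKM in R3-Cntl and 83.4 ± 58.4 in R3-cKO, lower in R3-cKO in all 3 pairs of the same number. Rarg was likewise lower in all 3 pairs, by the values given above. With the block neither passed (adjusted p = 0.233 and 0.483 by limma), and Rara (0.211) and Rxra (0.281) did not either. Crabp2 was 0.887 ± 0.440 and 1.5 ± 0.749. Crabp1 and Aldh1a2 did not pass the filter there. These comparisons use the same 12 libraries as those between zones.

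**Figure D4:**
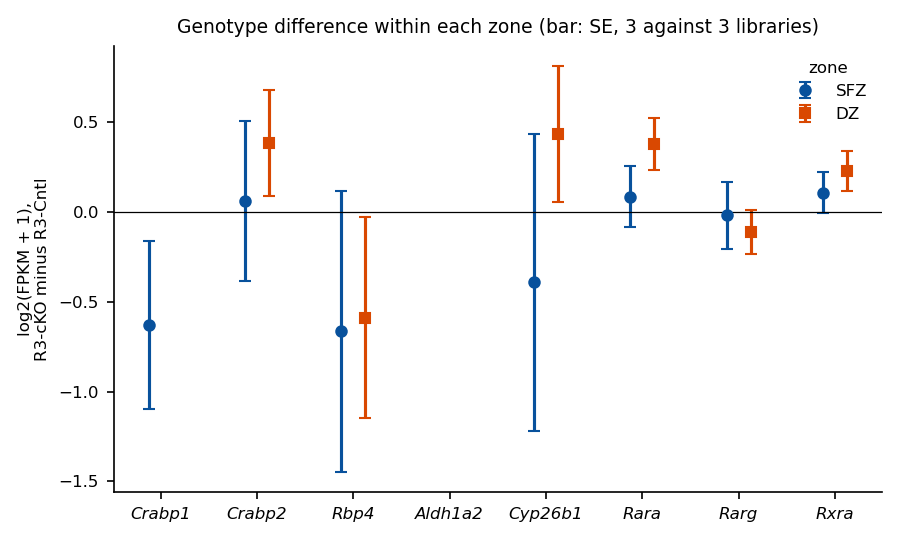
R3-cKO minus R3-Cntl difference on the log2(FPKM + 1) scale (y axis, bars are SE, 3 against 3 libraries) in SFZ and DZ cells; Aldh1a2 in both zones and Crabp1 in the DZ were not tested. In the DZ Cyp26b1 (0.44), Crabp2 (0.39), Rara (0.38) and Rxra (0.23) lie above 0 and Rbp4 (-0.59) and Rarg (-0.11) below. None of the points passed the adjusted threshold.

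Whether the genotype difference itself changed with the zone was tested as an interaction in all 12 libraries. None of the 7 genes passed, nor did any of 11765 genes (0 called, 0.00%, 99 at an unadjusted limma p under 0.05). Those 99 are likewise far fewer than a share of 0.05, so the lack of calls is no sign of equal genotype differences. The interaction was 0.29 (SE 0.22, limma adjusted p = 0.999) for Rara, 0.12 (SE 0.14) for Rxra, 0.60 (SE 0.53) for Crabp1 and 0.83 (SE 0.99) for Cyp26b1.

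Genes with the most similar pattern over the 12 libraries were found by Pearson's r of log2(FPKM + 1) among 4516 variable genes. All points share the zone and library structure, so r is given as a description. Il1rl2 (r = 0.986) and Cd34 (0.981), the latter among the fibroblast markers, were closest to Crabp1, and Lgals8 (0.994) and Nfib (0.984) to Crabp2. Tmem50b (0.981) was closest to Rara and Olfm1 (0.992) to Rxra. Ngef (0.960) was closest to Rbp4 and Rfc4 (0.963) to Cyp26b1. Rarg was closest to Mphosph6 (0.907) and next to Rbp4 (0.903). Rarg and Rxra varied too little to be candidates themselves, and Aldh1a2 was not included.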

How the data were processed

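RNA of SFZ and DZ chondrocytes from 5-day-old mice was sequenced by the authors as 100-bp paired-end reads and mapped to mm9. The submitters' processing notes name Bowtie 0.12.2. The deposited values are FPKM scaled by the authors with TMM, a unit inferred from the values. The authors' methods name quantile normalization and log2 CPM, and the deposited FPKM carry neither. Every column matched a genotype, zone and number, and 0 were left unmapped. Depth is unknown, since the values are not counts. The legend of the study speaks of individual mice as replicates.

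Genes that reached 1 FPKM in 3 or more of the fitted libraries were tested on log2(FPKM + 1) in R 4.3.3 with limma 3.58.1 (empirical Bayes with a mean-variance trend), adjusted by Benjamini-Hochberg. The script was tested on simulated data. Single genes were compared by exact permutation (NumPy 2.4.6 and pandas 2.3.3 under Python 3.11.15). Labels were exchanged freely across library numbers, also where the numbers were taken as paired. Named were the 8 genes, Runx3, Prg4, the genes of the retinoid lists and the 3 genes most similar to each by r, among genes with an SD of at least 0.3. Some genes of these lists are not reported here and enter no count of a list. The DR5 search and Ddx3y were added after the values were seen. The 8 genes and all lists were chosen with earlier results of these data known.

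The alternatives were no filter, a filter on a mean of 10 FPKM, 2 other pseudocounts (0.1 and 5), 2 other scalings (median-of-ratios size factors and quantile normalization), the library number as a block (also with no filter, added after seeing the data), a single model of all 12 libraries, each library left out in turn, ratios of arithmetic means and rank correlation. Whether numbers pair libraries was checked by correlating deviations from group means over 11359 genes. Same-number r was 0.65, 0.78 and 0.69 between genotypes in the DZ and 0.42, 0.78 and 0.65 between zones in R3-cKO, all above 0.1, so these were taken as paired.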

Additional observations from a re-analysis of the deposited data

How the results depend on the processing

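In the comparison of zones over all 12 libraries, the calls of Crabp1, Crabp2 and Rara held under every alternative that tested them, with adjusted p up to 0.00269 when single libraries were left out, and that of Rxra was lost under the 2 other scalings alone. Crabp1 entered these fits only through its SFZ levels, except the fit with no filter, so only that one is free of the selection. Counts of genes past the threshold moved more. Over all libraries 2725 genes became 1162 under the filter on a mean of 10 FPKM, where fewer genes are tested, and 1624 to 2899 without single libraries. In R3-Cntl the 140 genes became 0 with no filter, 8 under the filter on a mean of 10 FPKM, 88 and 29 with pseudocounts of 0.1 and 5, 1 after quantile normalization, 17 with median-of-ratios size factors, 798 in the single model and 0 to 505 without single libraries. In R3-cKO the 2 genes became 5 with no filter, 0 under the filter on a mean of 10 FPKM, 1 with either pseudocount, 165 in the single model and 0 to 5 without single libraries. Between genotypes in the DZ 1 gene passed with no filter. The cause was not tested.

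With the library number as a replicate block, 352 genes passed in R3-cKO, 831 in R3-Cntl, 3965 over all libraries and 0 between genotypes in the DZ. With the block and no filter together, an alternative chosen after seeing the data, 0 passed in R3-cKO and 0 between genotypes in the DZ, and the calls of Crabp1 and Rara in R3-cKO were lost. The numbers do not pair R3-Cntl zones (same-number r of 0.58, 0.11 and -0.15) or SFZ genotypes (0.79, -0.09 and -0.42). Across numbers, R3-Cntl SFZ library 3 had an r of 0.58 with R3-Cntl DZ library 2 and 0.69 with R3-cKO SFZ library 2. R3-Cntl SFZ library 2 had 0.38 with R3-Cntl DZ library 3 and 0.45 with R3-cKO SFZ library 3. These libraries may thus be paired under other numbers, which was not tested. Beyond Crabp1 and Rara in R3-cKO, the block changed no call of the 8 genes.

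Differences that changed sign were not called in any of the fits concerned. Cyp26b1 between zones in R3-cKO was -0.056 with a pseudocount of 5. Without single libraries, the zone difference of Cyp26b1 was -0.64 to 0.023 over all libraries and -0.50 to 0.99 in R3-cKO, where that of Rbp4 was -0.23 to 1.36 and that of Rarg -0.056 to 0.28. Between genotypes in the SFZ, Crabp2 was -0.29 to 0.51, Rbp4 -1.38 to 0.20, Cyp26b1 -1.31 to 0.19, Rara -0.037 to 0.21, Rarg -0.19 to 0.14 and Runx3 -0.36 to 0.41. In the DZ Runx3 was -0.089 to 0.37. The interaction was -0.12 to 0.68 for Crabp2, -0.79 to 0.79 for Rbp4 and -0.25 to 0.083 for Rarg.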
